A study of Mus musculus with 6 samples.

Results

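The 10 genes described here belong to the switch from the G1 phase of the cell cycle into DNA synthesis, and were measured in mouse cerebral cortex with and without Cre-driven deletion of PEN-2, a subunit of the membrane protease γ-secretase. They are the D cyclins *Ccnd1*, *Ccnd2* and *Ccnd3*, the kinases *Cdk4* and *Cdk6*, the E cyclins *Ccne1* and *Ccne2*, and the kinase inhibitors *Cdkn1b*, *Cdkn1c* and *Cdkn2c*. They were selected by gene name from a table of 34745 genes, and each of the 10 names matched 1 row. All 10 passed the filter on low values, which asked for at least 0.5 FPKM in at least 3 of the 6 libraries. FPKM, the deposited unit, counts fragments relative to transcript length and library size, so levels can be set side by side between genes. Between libraries it also depends on the scaling, and other scalings were tried.

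D cyclins are made when growth factors signal. They bind CDK4 or CDK6, and the complex phosphorylates the retinoblastoma protein, which then lets go of E2F transcription factors. E2F factors induce the E cyclins, which with CDK2 complete that phosphorylation and start replication. The INK4 inhibitors, such as p18 from *Cdkn2c*, bind CDK4 and CDK6 and keep D cyclins off, while the Cip/Kip inhibitors p21, p27 and p57, from *Cdkn1a*, *Cdkn1b* and *Cdkn1c*, bind whole cyclin and kinase complexes. In the early postnatal cortex, glial precursors divide, and p27, p57 and p18 are known as brakes on the division of precursors.

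The 6 libraries were made from total RNA of cerebral cortex at postnatal day 8. The 3 control libraries came from Pen-2 F/F mice, in which both alleles of the gene for PEN-2 are floxed. The 3 conditional knockout (cKO) libraries came from Pen-2 F/F mice that also carried hGFAP-Cre, a Cre recombinase driven by a human GFAP promoter. That promoter is known to be active in radial glia, so their neuronal and glial descendants can carry the deletion. The labels give the Cre for the cKO samples only, so Cre itself and the loss of PEN-2 cannot be told apart. They do not say that each library came from its own animal, and p-values here measure the spread between these libraries.

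The steps between low values in single-transcript genes implied 20200000 to 26800000 fragments per library. *Psenen*, which encodes PEN-2, had 6.35 to 7.32 FPKM in the controls and 3.56 to 4.03 FPKM in the cKO group and fell (log2 fold change -0.82, SE 0.09, limma adjusted p = 0.00441). Neuronal markers for cortex were present in every library, with *Slc17a7*, the vesicular glutamate transporter of excitatory neurons, at 175.7 to 250.2 FPKM. Pairs of libraries of 1 group correlated at 0.979 to 0.989 across genes and pairs from different groups at 0.964 to 0.975. cKO replicate 3 stood apart in the choroid plexus gene *Ttr*, at 876.5 FPKM against 33.1 to 323.8 FPKM in the other libraries. Of 14147 genes tested with limma, 519 rose and 264 fell at an adjusted p under 0.05. With median-ratio scaling the split was 314 higher and 343 lower, with upper-quartile scaling 351 and 346, and with equal sums 897 and 243. Without cKO replicate 3 it was 314 and 307.

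Of the 10 genes, 3 rose and none fell: *Ccnd1*, *Cdk4* and *Cdkn2c*. Among all tested genes, 3.67% rose and 1.87% fell, 5.53% in all. The median log2 fold change of the 10 was 0.33, against 0.07 for all tested genes, and 9 of 10 had a higher mean in cKO. How many of all tested genes had a higher mean was not counted. With median-ratio scaling the median of all tested genes was -0.001. In 5 genes, *Ccnd1*, *Cdk4*, *Cdk6*, *Cdkn1c* and *Cdkn2c*, every cKO library lay above every control library, and in none did every cKO library lie below. Over all tested genes those shares were 21.5% and 8.17%. Of the 3 calls, only that of *Ccnd1* was kept with every library left out in turn: without control replicate 1, control replicate 2 or cKO replicate 2 it was the only one of the 10 called.

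**Figure D1:**
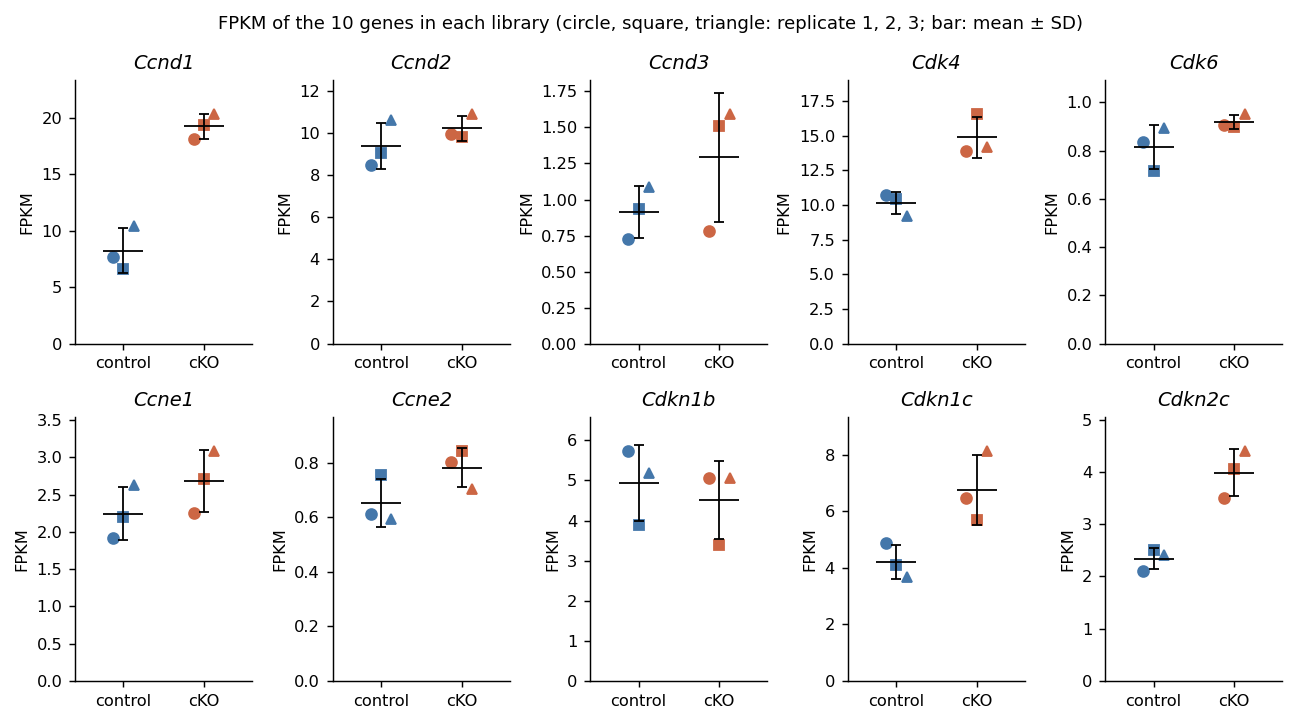
FPKM (y axis, from 0) of each of the 10 genes in the 3 control and 3 cKO libraries, with 1 symbol per replicate and the mean ± SD as a bar. Ccnd1 sits between 6.61 and 10.5 FPKM in control and between 18.1 and 20.3 FPKM in cKO libraries, while the groups of Ccnd2 and Cdkn1b overlap.

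Cyclin D1 was the member with the largest change. *Ccnd1* (ENSMUSG00000070348, mm10 chromosome 7, 144929931 to 144939869, minus strand) was 7.63, 6.61 and 10.5 FPKM in control replicates 1, 2 and 3 and 18.1, 19.4 and 20.3 FPKM in cKO replicates 1, 2 and 3. The lowest cKO library was well above the highest control library, which was control replicate 3. Its mean rose from 8.23 ± 1.99 to 19.3 ± 1.13 FPKM (SD, n = 3 per group), 2.34 times the control mean, for a log2 fold change of 1.24 with an SE of 0.16 (limma adjusted p = 0.0066). Leaving out any 1 library gave log2 fold changes from 1.10 to 1.42, all called. The gene overlaps *Oraov1* on the opposite strand over 1100 exonic bases, and whether the authors counted by strand is not given in the sources used here. *Oraov1* had 3.20 ± 0.247 FPKM in the controls and 3.14 ± 0.391 FPKM in the cKO group (log2 difference -0.03, limma adjusted p = 0.910).

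Cyclin D2, the other abundant D cyclin and one linked to neural progenitors, did not pass. *Ccnd2* (ENSMUSG00000000184, chromosome 6, 127125162 to 127152193) stood at 8.45, 9.06 and 10.6 FPKM across control replicates and at 9.96, 9.79 and 10.9 FPKM across cKO replicates. The groups overlapped, with control replicate 3 above 2 of the cKO libraries. The log2 difference was 0.13, with a 95% interval from -0.10 to 0.36 (limma adjusted p = 0.497), so a change as large as that of *Ccnd1* lies outside the interval. Cyclin D3 was scarce: *Ccnd3* (chromosome 17, 47505051 to 47599691) measured 0.727, 0.931 and 1.08 FPKM in the control libraries, against 0.780, 1.51 and 1.59 FPKM in the cKO libraries. Here cKO replicate 1 lay among the controls and the other cKO libraries above them. The log2 difference of *Ccnd3* was 0.42, with a wide 95% interval from -0.25 to 1.08 (limma adjusted p = 0.434). *Ccnd3* shares 361 exonic bases with *Bysl* on the opposite strand, which was far more abundant at 12.9 to 14.5 FPKM, and the part of *Bysl* in the *Ccnd3* values was not tested.

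The share of each D cyclin in their summed level was also computed, since FPKM is a level per length. Their sum had control values of 16.8, 16.6 and 22.1 FPKM and cKO values of 28.8, 30.7 and 32.8 FPKM. *Ccnd1* made up 45.4%, 39.8% and 47.2% of it in control and 62.7%, 63.1% and 62.0% in cKO libraries. *Ccnd2* made up 50.3%, 54.6% and 47.9% in control and 34.5%, 31.9% and 33.2% in cKO libraries, and *Ccnd3* between 2.71% and 5.61% in every library. *Ccnd2* was thus the leading D cyclin in each control library and *Ccnd1* in each cKO library. The ratio of *Ccnd1* to *Ccnd2* was 0.873 ± 0.131 in control and 1.89 ± 0.0825 in cKO cortex (SD, n = 3), and that difference was not tested.

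**Figure D2:**
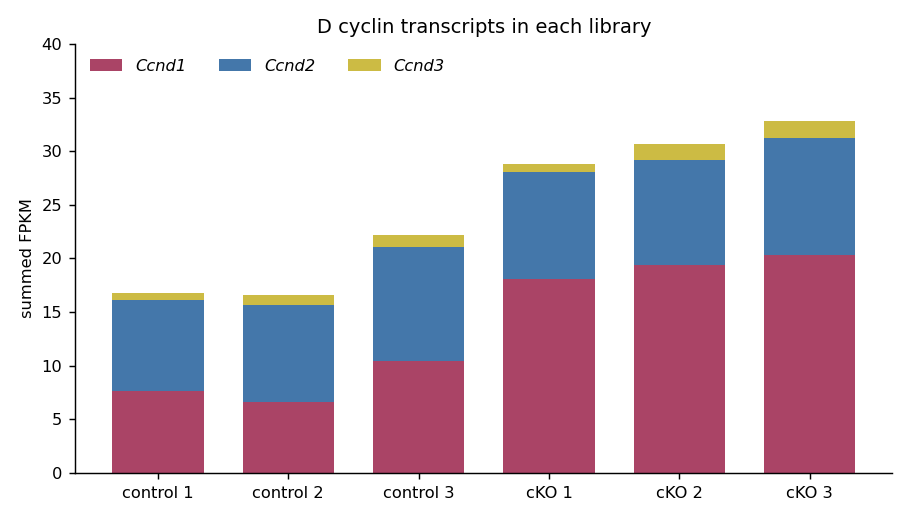
Summed FPKM (y axis, from 0) of Ccnd1, Ccnd2 and Ccnd3 in each of the 6 libraries, stacked by gene. The sums run from 16.6 to 22.1 FPKM in control and from 28.8 to 32.8 FPKM in cKO libraries, and the Ccnd1 part is what differs most.

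Of the kinases that D cyclins activate, *Cdk4* rose. *Cdk4* (ENSMUSG00000006728, chromosome 10, 127063534 to 127067920, plus strand) stood at 10.7, 10.4 and 9.23 FPKM across control replicates and at 13.9, 16.6 and 14.2 FPKM across cKO replicates. The groups did not overlap, and cKO replicate 2 was the highest. The mean rose from 10.1 ± 0.784 to 14.9 ± 1.46 FPKM, 1.47 times the control mean (log2 fold change 0.55, SE 0.09, limma adjusted p = 0.0198). The call ended without control replicate 1, control replicate 2 or cKO replicate 2, with limma adjusted p of 0.0542, 0.0738 and 0.0671 and log2 fold changes of 0.59, 0.57 and 0.47. At its 3′ end *Cdk4* overlaps *Tspan31*, a tetraspanin gene on the opposite strand, over 641 exonic bases. *Tspan31* measured 30.9, 29.2 and 36.8 FPKM in the control libraries, against 37.0, 37.0 and 39.3 FPKM in the cKO libraries (log2 difference 0.23, SE 0.09, limma adjusted p = 0.181), and its part in the *Cdk4* values was not tested.

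*Cdk6*, which encodes the sister kinase, was low and did not pass. *Cdk6* (chromosome 5, 3341485 to 3531008) had control values of 0.834, 0.715 and 0.894 FPKM and cKO values of 0.906, 0.897 and 0.952 FPKM. Every cKO library was above every control library, but by little: the log2 difference was 0.16 with a 95% interval from -0.21 to 0.53 (limma adjusted p = 0.606). The ratio of *Cdk4* to *Cdk6* was 12.8, 14.6 and 10.3 in control and 15.3, 18.5 and 14.9 in cKO libraries. *Cdk4* was thus the main transcript of the pair in all 6 libraries.

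The promoter of *Cdk4* is printed because *Cdk4* is one of the genes that rose and its start region holds several E-boxes of the form CACGTG, the sequence that MYC with MAX and related factors bind. The sequence is that of RefSeq on GRCm38.p6 (chr10:127063285-127063584, plus strand), from 250 bases before to 50 bases after the start, with each CACGTG in capitals.
Cdk4: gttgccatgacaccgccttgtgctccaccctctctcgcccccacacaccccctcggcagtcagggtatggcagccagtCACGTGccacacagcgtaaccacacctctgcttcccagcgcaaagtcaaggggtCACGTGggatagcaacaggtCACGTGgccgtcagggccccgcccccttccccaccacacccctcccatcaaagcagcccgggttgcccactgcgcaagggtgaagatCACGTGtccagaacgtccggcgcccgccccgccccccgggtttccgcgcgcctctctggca
The 4 copies begin 172, 118, 98 and 11 bases before the start. CACGTG reads the same on both strands, and at least 1 copy stands in 7.15% of the 32851 promoters of that length in the table, while 4 or more copies stand in 8 of them (0.0244%). The window also holds 3 copies of the GC box GGGCGG and 1 of TGGGAA, the core of the site bound by RBPJ, the DNA-binding partner of Notch, counted on both strands and not overlapping the E-boxes. Of all promoters, 35.7% hold GGGCGG and 25.6% hold TGGGAA. In the measured RNA, *Myc* stood at 1.27, 2.22 and 1.72 FPKM across control replicates and at 1.92, 2.02 and 1.44 FPKM across cKO replicates and did not pass (log2 difference 0.06). *Mycn* measured 8.06, 8.35 and 7.41 FPKM in the control libraries, against 7.03, 3.12 and 6.42 FPKM in the cKO libraries and did not pass either (log2 difference -0.60, limma adjusted p = 0.275).

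The E cyclins, which act after the D cyclins, were low and did not pass. *Ccne1* (chromosome 7, 38097984 to 38107534) had control values of 1.92, 2.19 and 2.62 FPKM and cKO values of 2.25, 2.71 and 3.08 FPKM. *Ccne2* (chromosome 4, 11191351 to 11204779) stood at 0.612, 0.755 and 0.594 FPKM across control replicates and at 0.803, 0.842 and 0.704 FPKM across cKO replicates. In both genes the groups overlapped, and the cKO means were 1.19 and 1.20 times the control mean. The log2 differences were 0.24 for *Ccne1* (95% interval -0.14 to 0.63, limma adjusted p = 0.426) and 0.23 for *Ccne2* (95% interval -0.18 to 0.65, limma adjusted p = 0.492). At the length of its longest annotated transcript, *Ccne2* would stand for only 40 to 66 fragments per library. *Ccne2* also shares 609 exonic bases with *Ints8* on the opposite strand, which had 2.76 ± 0.144 FPKM in the controls and 3.36 ± 0.0559 FPKM in the cKO group (limma adjusted p = 0.143).

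Among the Cip/Kip inhibitors, *Cdkn1c* was higher in each cKO library but missed the threshold. *Cdkn1c*, which encodes p57 (ENSMUSG00000037664, chromosome 7, 143458350 to 143461050), measured 4.88, 4.09 and 3.67 FPKM in the control libraries, against 6.46, 5.69 and 8.12 FPKM in the cKO libraries. The groups did not overlap, and cKO replicate 3 was the highest. The means were 4.21 ± 0.614 and 6.76 ± 1.24 FPKM, with a log2 difference of 0.66 (SE 0.16, 95% interval 0.30 to 1.03, limma adjusted p = 0.0556). Over 16 alternatives the adjusted p ran from 0.0396, with equal sums, to 0.170, and only with equal sums was it called. An antisense gene, *Gm44732*, shares 625 of the 2039 exonic bases of *Cdkn1c*, and the deposited values hold no level for *Gm44732*.

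*Cdkn1b*, which encodes p27, was the one member with a lower mean in cKO cortex. *Cdkn1b* (chromosome 6, 134920401 to 134925513) had control values of 5.72, 3.89 and 5.19 FPKM and cKO values of 5.07, 3.38 and 5.06 FPKM. Replicate 2 was the lowest library in each group, and the groups overlapped. The log2 difference was -0.13 with a 95% interval from -0.60 to 0.33 (limma adjusted p = 0.745), and it was 0.06 without cKO replicate 2.

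For comparison, *Cdkn1a*, which encodes p21, the third Cip/Kip inhibitor and a target of p53, stood at 14.4, 15.4 and 14.8 FPKM across control replicates and at 23.0, 21.1 and 22.3 FPKM across cKO replicates. It rose (log2 fold change 0.57, SE 0.06, limma adjusted p = 0.00312). The 3 Cip/Kip genes summed to 24.0 ± 0.880 FPKM without Cre and 33.4 ± 2.81 FPKM with it (SD, n = 3). *Cdkn1b* made up 20.5% ± 3.36 of that sum in control and 13.4% ± 1.91 in cKO cortex, and *Cdkn1c* 17.5% ± 1.99 and 20.2% ± 2.37. The ratio of summed D cyclin to summed Cip/Kip FPKM was 0.672, 0.710 and 0.936 in control and 0.836, 1.02 and 0.925 in cKO libraries, so there the groups overlapped.

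The INK4 inhibitor *Cdkn2c*, which encodes p18, rose. *Cdkn2c* (ENSMUSG00000028551, chromosome 4, 109660876 to 109667189, minus strand) measured 2.11, 2.52 and 2.40 FPKM in the control libraries, against 3.51, 4.05 and 4.39 FPKM in the cKO libraries. The groups were well apart, with no control library above 2.52 FPKM. The mean rose from 2.34 ± 0.209 to 3.98 ± 0.448 FPKM, 1.7 times the control mean (log2 fold change 0.74, SE 0.12, limma adjusted p = 0.0193). No annotated gene overlaps it. The call ended without control replicate 1, control replicate 2 or cKO replicate 2, with limma adjusted p of 0.0664, 0.0617 and 0.0823 and log2 fold changes of 0.67, 0.79 and 0.72.

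The other INK4 genes are not among the 10. *Cdkn2d*, which encodes p19, was the most abundant at 49.7 to 58.8 FPKM in control and 56.3 to 62.2 FPKM in cKO libraries and did not pass (log2 difference 0.16, limma adjusted p = 0.270). *Cdkn2b*, which encodes p15, had 0.564 to 0.721 FPKM in the controls and 0.371 to 0.428 FPKM in the cKO group. It passed the filter on low values through the control group alone, so its test is not read here. *Cdkn2a* was between 0.0796 and 0.538 FPKM and was not tested.

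*Cdkn2c* has a pair of annotated starts, and both promoters are shown because this gene rose and their sequences differ in kind. They are from RefSeq on GRCm38.p6, minus strand, at chr4:109666707-109667006 for the upstream start, with each GGGCGG in capitals, and at chr4:109665323-109665622 for the downstream start, with CACGTG in capitals.
Cdkn2c upstream: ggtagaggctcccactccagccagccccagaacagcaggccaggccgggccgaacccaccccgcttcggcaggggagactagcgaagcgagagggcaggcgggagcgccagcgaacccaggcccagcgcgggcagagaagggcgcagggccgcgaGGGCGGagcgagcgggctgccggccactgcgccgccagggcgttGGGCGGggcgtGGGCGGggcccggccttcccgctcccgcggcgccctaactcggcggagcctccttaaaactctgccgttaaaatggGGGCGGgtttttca
Cdkn2c downstream: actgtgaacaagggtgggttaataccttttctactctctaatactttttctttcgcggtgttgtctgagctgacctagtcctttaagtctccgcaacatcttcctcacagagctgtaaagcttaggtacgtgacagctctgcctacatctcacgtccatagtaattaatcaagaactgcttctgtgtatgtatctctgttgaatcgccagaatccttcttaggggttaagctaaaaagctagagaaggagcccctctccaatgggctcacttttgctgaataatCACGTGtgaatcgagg
The upstream window holds 4 GC boxes and no CACGTG, and 5.49% of all promoters hold 4 or more GC boxes. The downstream window holds no GC box and 1 CACGTG, which lies after the start. Gene-level FPKM does not show which start was used. The letters TTTNGCGC, a strict form of the E2F site, were in none of the windows of the 10 genes that the table holds, and in 1.38% of all promoters. Promoters of 6 of the 10 genes were in the table, and the others with an entry, *Ccnd3*, *Cdk6*, *Ccne1* and *Cdkn1b*, did not pass the test. Of these, the *Ccne1* window also holds 4 GC boxes and the *Cdk6* window 1 CACGTG. Each *Ccnd3* window holds 2 GC boxes and the *Cdkn1b* window 1. The part of these motifs in the levels was not tested.

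**Figure D3:**
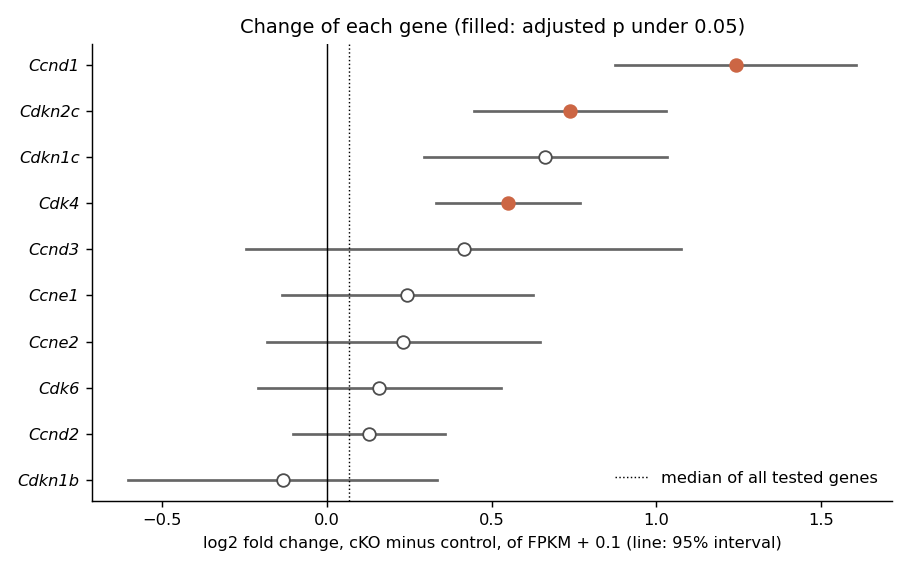
Log2 fold change of each of the 10 genes, cKO minus control, on the log2(FPKM + 0.1) scale (x axis), with its 95% interval as a line. The 3 filled points, from 0.55 to 1.24, are the genes called, and the dotted line marks the median of all tested genes at 0.07.

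The order of the mean levels was not the same in the groups. In control cortex *Cdk4* (10.1 FPKM), *Ccnd2* (9.37 FPKM) and *Ccnd1* (8.23 FPKM) led, and each overlapped the next in its libraries. *Cdkn1b* (4.93 FPKM) and *Cdkn1c* (4.21 FPKM) followed and overlapped each other, then *Cdkn2c* (2.34 FPKM) and *Ccne1* (2.25 FPKM), which also overlapped, and last *Ccnd3*, *Cdk6* and *Ccne2*, all under 1 FPKM on average. In cKO cortex *Ccnd1* (19.3 FPKM) led, with *Cdk4* (14.9 FPKM), *Ccnd2* (10.2 FPKM) and *Cdkn1c* (6.76 FPKM) next, each apart from its neighbour. *Cdkn1b* (4.50 FPKM) and *Cdkn2c* (3.98 FPKM) overlapped in cKO libraries. The low end, from *Ccne1* at 2.68 FPKM to *Ccne2* at 0.783 FPKM, kept its order.

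Genes that act after the 10 were described by counts. Of 6 cyclins and kinases of S, G2 and M phase, 4 rose and none fell (2 or 3 with 1 library left out), with a median log2 fold change of 0.85 against 0.07 for all tested genes. *Ccna2*, which drives S phase, rose from 2.32 ± 0.328 to 4.61 ± 0.149 FPKM, *Ccnf* from 2.12 ± 0.322 to 4.32 ± 0.592 FPKM, *Ccnb2* by a log2 fold change of 0.88 and the mitotic kinase *Cdk1* by 0.82. *Cdk2*, the partner of the E cyclins, was 2.40 ± 0.152 and 3.12 ± 0.703 FPKM and did not pass (limma adjusted p = 0.264). Of 12 proliferation markers, 11 rose and none fell (5 to 9 with 1 library left out), with a median of 0.87. The 4 with the smallest p were *Cdc20*, an activator of the anaphase-promoting complex (log2 fold change 1.36), *Mki67*, the Ki-67 gene (1.23), *Top2a*, a DNA topoisomerase (1.20), and *Mcm5*, a subunit of the replicative helicase (0.83). The ratio of *Ccnd1* to *Mki67* was 3.06 ± 0.932 in control and 2.94 ± 0.185 in cKO cortex. For *Cdk4* the same ratio was 3.71 ± 0.199 and 2.29 ± 0.359, and for *Cdkn2c* 0.861 ± 0.0809 and 0.608 ± 0.0608.

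The retinoblastoma family and the E2F factors are the targets of the D and E cyclin kinases. Of 11 pocket protein and E2F genes tested, 1 was called higher, *E2f2*, and none lower, with a list median of 0.17. *E2f2* was 0.313 to 0.416 FPKM in control and 0.755 to 0.783 FPKM in cKO libraries, so it passed the filter on low values through the cKO group alone, and its call is not read as a result. With no filter on low values, none of the 13 genes of the list was called. *Rb1*, the retinoblastoma gene, was 6.50 ± 0.314 and 6.94 ± 0.401 FPKM, and *E2f1* 3.92 ± 0.464 and 3.90 ± 0.659 FPKM, neither of which passed. *E2f7* and *Tfdp2* fell below the filter.

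Of 15 regulators of CDK activity and turnover, 2 rose and none fell (0 or 1 with 1 library left out), with a median of 0.13. *Cks1b*, a small CDK subunit that helps mark p27 for destruction, rose from 4.89 ± 0.166 to 7.15 ± 0.374 FPKM, and *Cdc25c*, a phosphatase that activates CDK1, from 1.13 ± 0.231 to 2.29 ± 0.475 FPKM. Of 7 genes that respond to growth factor signalling, 2 rose and none fell (0 to 2 with 1 library left out), with a median of 0.10. They were *Spry4* and *Dusp6*, feedback inhibitors of the MAP kinase pathway, with log2 fold changes of 0.73 and 0.50. Of 11 cyclins and kinases with other roles, 2 rose, *Cdk18* (log2 fold change 1.17) and *Ccng1* (0.38), and none fell (1 or 2 higher with 1 library left out), with a median of 0.03. With median-ratio or upper-quartile scaling, 1 gene of that list was higher and 1 lower, and the median was -0.038 or -0.027.

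**Figure D4:**
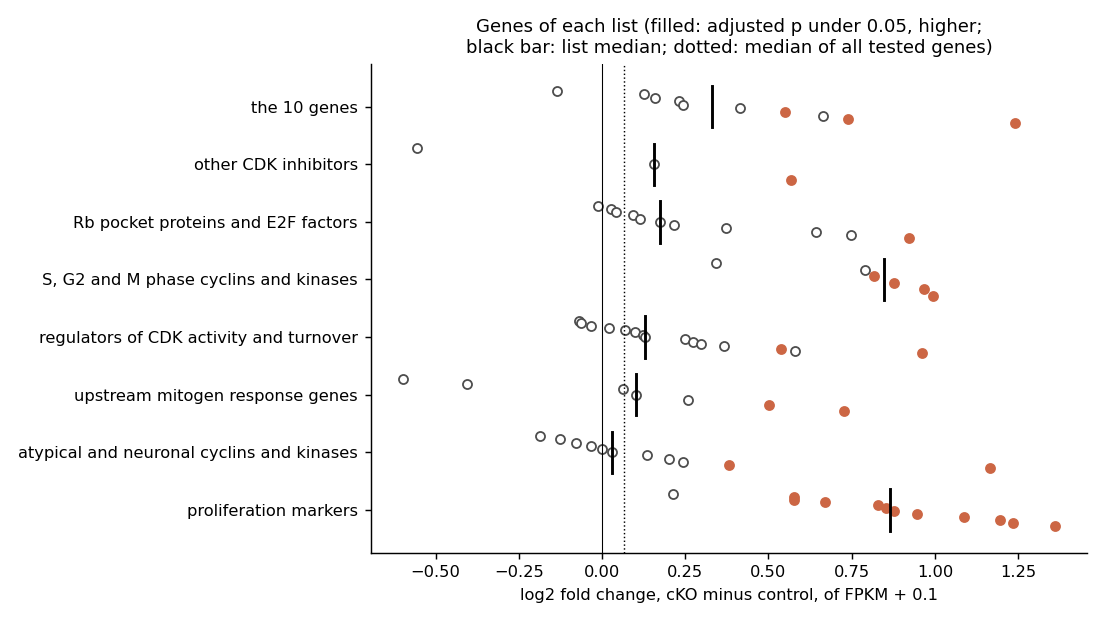
Log2 fold change (x axis, cKO minus control, on the log2(FPKM + 0.1) scale) of every tested gene of the 10 and of 7 related lists, 1 point per gene, with list medians as black bars. The medians of the S, G2 and M phase list (0.85) and of the proliferation markers (0.87) lie furthest right, and 3 of the 10 genes are filled as called.

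Markers of cell types also differed between the groups. Of 6 oligodendrocyte precursor markers, 4 rose and none fell, and their summed level was 99.0 to 126 FPKM in the controls and 248 to 312 FPKM in the cKO group. The 4 were *Olig1*, *Olig2*, *Sox10* and *Gpr17*. *Pdgfra* and *Cspg4* were higher in each cKO library but did not pass (log2 differences 0.27 and 0.53, limma adjusted p = 0.102 and 0.064). Of 6 oligodendrocyte markers, 6 rose, with sums of 24.5 to 36.6 FPKM in control and 93.6 to 141 FPKM in cKO libraries. Of 6 astrocyte markers, 4 fell, with sums of 173 to 240.0 FPKM in control and 50.7 to 98.3 FPKM in cKO libraries. In bulk tissue, more cells of a type and more RNA per cell cannot be told apart. The ratio of *Ccnd1* to *Olig2*, a transcription factor of the oligodendrocyte lineage, was 0.582 ± 0.0934 in control and 0.462 ± 0.0377 in cKO cortex, and to *Pdgfra*, the receptor of early precursors, 0.775 ± 0.208 and 1.5 ± 0.0512. For *Cdkn2c* the ratio to *Olig2* was 0.167 ± 0.0152 and 0.0952 ± 0.00793, and to *Pdgfra* 0.220 ± 0.0202 and 0.308 ± 0.00884. For *Ccnd1* to *Olig2* the groups overlapped, with control replicate 2 (0.483) below cKO replicate 1 (0.488), while in the other 3 ratios they did not. These differences were not tested.

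Other cell types were measured too. The 6 meningeal fibroblast markers, 3 of which rose, summed to 23.3 to 26.9 FPKM in control and 46.5 to 91.1 FPKM in cKO libraries. The 6 mural cell markers, 2 of which rose, summed to 35.8 to 43.8 and 50.2 to 52.3 FPKM, and the 6 endothelial markers, 1 of which rose, to 39.4 to 47.2 and 49.5 to 54.7 FPKM. The 6 microglial markers, none of which passed, summed to 26.5 to 35.3 and 37.6 to 67.1 FPKM. The largest part of that sum was *C1qa*, at 12.8 to 18.3 and 21.6 to 44.0 FPKM. *C1qa* and *Aif1* were higher in each cKO library. In *Csf1r*, *Cx3cr1*, *P2ry12* and *Tmem119* the groups overlapped, and *P2ry12* had a lower mean in cKO (log2 difference -0.34). The 6 choroid plexus and ependymal markers, of which 5 were tested and none passed, summed to 37.9 to 185 and 186 to 892 FPKM. Most of that sum was *Ttr*, at 33.1 to 178.1 and 181.8 to 876.5 FPKM. In the other 4 tested markers the groups overlapped. Neuronal markers (1 of 6 rose) summed to 385 to 477 and 387 to 455 FPKM, with *Slc17a7* as the largest part. The marker that rose was *Gad1* (log2 fold change 0.58). *Gad2* was higher and *Rbfox3* lower in each cKO library, but neither passed (log2 differences 0.39 and -0.22, limma adjusted p = 0.110 and 0.0941). In *Snap25*, *Syt1* and *Slc17a7* the groups overlapped. The 6 neuroblast and intermediate progenitor markers, of which 4 were tested and none passed, summed to 49.5 to 60.6 and 46.4 to 50.1 FPKM, and blood markers (none of 5 passed) to 115 to 219 and 110 to 171 FPKM. *Eomes* was the only marker at 0 in any library. The part of these cell types in the levels of *Ccnd1*, *Cdk4*, *Cdkn1c* and *Cdkn2c* was not tested. Without cKO replicate 3, in which the choroid plexus, meningeal and microglial sums were highest, the log2 fold changes were 1.20 for *Ccnd1*, 0.58 for *Cdk4* and 0.67 for *Cdkn2c*, all still called, and 0.52 for *Cdkn1c*.

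**Figure D5:**
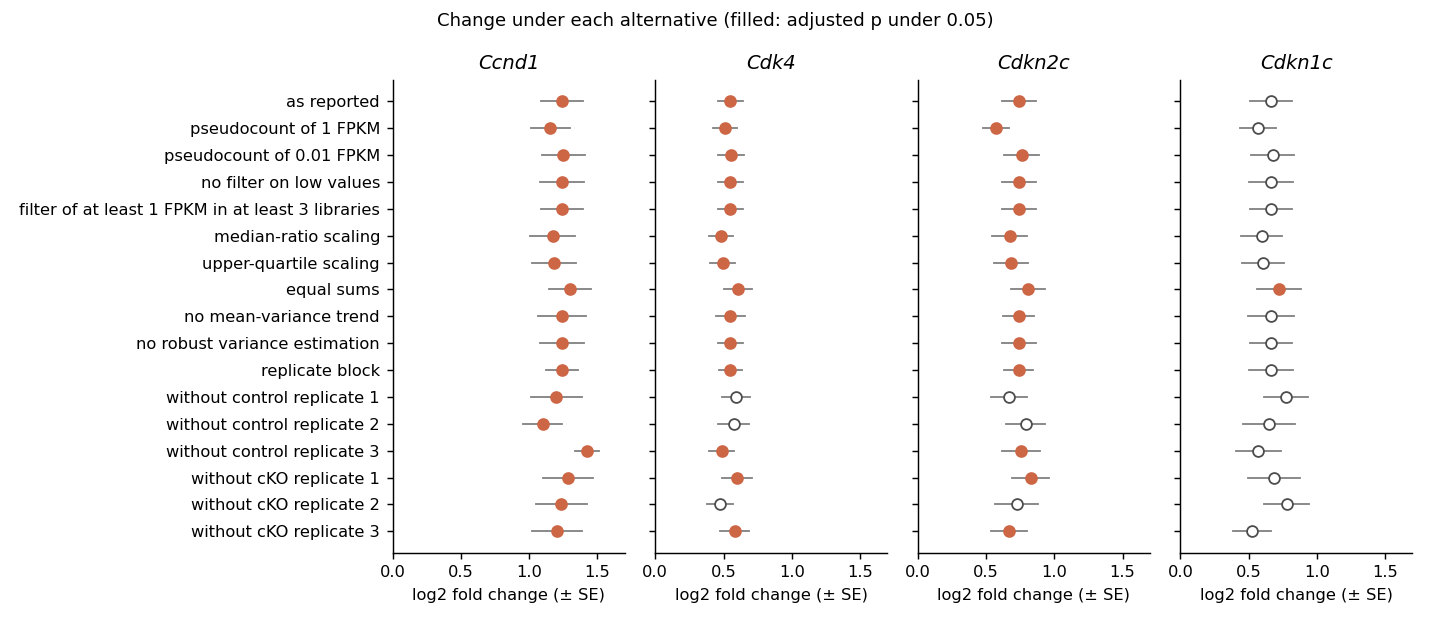
Log2 fold change (x axis, ± SE) of Ccnd1, Cdk4, Cdkn2c and Cdkn1c as reported and under 16 alternatives (y axis), filled where the adjusted p is under 0.05. Ccnd1 is filled in every one, Cdk4 and Cdkn2c in 13 of the 16, and Cdkn1c with equal sums only.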

How the data were processed

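Gene expression was measured by RNA sequencing in 6 libraries of mouse cortex, 3 control and 3 cKO. Values deposited by the authors are FPKM per library, per the file headers, despite a title that speaks of counts. The submitters' processing notes name mm10 as the build. The aligner, counting program, annotation release and strand setting were not given in the sources used here. Besides FPKM, the table holds deposited q-values (p-values adjusted by the authors) and calls, whose test is not stated; they were used only in the closing section. The 6 per-library tables matched the series-wide one.

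Depth was read from single-transcript genes (GENCODE M21 lengths over 1000 bases), in which 95.2% to 96.7% of values between 0.5 and 6 fragments lay within 0.02 of a whole number. All 10 genes have several transcripts, which kept whole reads from being recovered, so a count model was not used. Groups were compared with limma 3.58.1 under R 4.3.3, using a mean-variance trend and robust variances, on log2(FPKM + 0.1), keeping genes that reached 0.5 FPKM in 3 or more libraries, with no term but group. Adjustment of p-values was by Benjamini-Hochberg over 14147 genes, and genes under 0.05 were called. The pseudocount makes the log2 fold changes of low genes too small. The steps were tested on simulated data.

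The 10 genes, 7 related lists and 11 marker lists were chosen with earlier results of these data known. The text names all 10 genes, *Psenen*, from each related list up to 4 called genes by smallest p or else the 2 with the highest mean, and any other list gene on which a result of the 10 turns. Genes outside that rule, such as *Rb1*, *E2f1*, *Cdk2*, *Cdkn2b* and *Tspan31*, were added once their values had been seen. Coordinates are as deposited, on mm10 and counted from 1; overlaps and transcript lengths come from GENCODE M21, and promoters from RefSeq. The 16 alternatives varied the pseudocount, filter, scaling, variance options, a replicate block and each library left out. Software also included Python 3.11.15, pandas 2.3.3, NumPy 2.4.6 and, for the plots, matplotlib 3.10.9.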

Additional observations from a re-analysis of the deposited data

How the results depend on the processing

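Over 16 alternatives the direction of *Ccnd1*, *Cdk4*, *Cdkn2c* and *Cdkn1c* did not change, nor did that of any other of the 10 genes except *Cdkn1b*, whose log2 difference was between -0.29 and 0.0555 with 1 library left out, the latter without cKO replicate 2. With 1 library left out, 1 to 3 of the 10 genes were called, and 210 to 813 of all genes. Over all genes, 499 were called with no filter on low values. With equal sums 4 of the 10 were called. With a filter at 1 FPKM, 8 of the 10 were tested and *Cdk6* and *Ccne2* were not. Whether the replicate numbers pair the samples was not settled. Deviations of same-numbered control and cKO libraries correlated at 0.061, 0.012 and 0.1, and those of differently numbered ones at -0.091 to 0.056. With 3 libraries per group, these values cannot decide it. With the replicate number as a block 456 genes were called, with 3 of the 10 genes called as before. A fit without 1 library leaves 2 in its group, tests fewer genes and has less power. *Ccne2*, *Ccnd3* and *Ccne1* stand for at most 66, 165 and 165 fragments per library at the length of the longest transcript, and the part of depth in their spread was not tested. With no mean-variance trend, 1 of the 3 other CDK inhibitors tested was higher and 1 lower. The lower gene was *Cdkn2b*, which passed the filter on low values through the control group alone, so that call is not read as a result.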

Other observations

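The authors' deposited table gives its own values for the 10 genes. It calls *Ccnd1*, *Cdkn1c* and *Cdkn2c* up, with q-values of 2.4e-08, 0.0141 and 0.0162, and makes no call for *Cdk4*, whose q-value there is 0.00369. *Cdkn1c* is thus called there and missed the threshold in limma, while *Cdk4* passed in limma and has no call there.

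The group values in the authors' deposited table are not the means of the library values. For *Cdkn1c* the authors' deposited table gives 9.15 FPKM for the cKO group, above the highest cKO library (8.12 FPKM), against 4.22 FPKM for control. For *Cdkn2c* the authors' deposited table gives 4.49 FPKM for the cKO group, also above the highest cKO library (4.39 FPKM), and the same holds for *Ccne2* (0.972 against 0.842 FPKM) and *Cdkn1b* (5.17 against 5.07 FPKM). In the control group no authors' deposited value for the 10 genes lies above the highest library.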
